A study of Homo sapiens with 6 samples.

Results

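The minor fibrillar collagens are the fibril-forming chains that skin makes beside type I collagen. They were taken here as 6 genes of a deposited RNA sequencing count table, COL3A1 (type III), COL5A1, COL5A2 and COL5A3 (type V), COL11A1 (type XI) and COL27A1 (type XXVII), matched by gene symbol. All 6 were found among 21151 listed genes. Each library came from CCD-1064Sk cells, a human fibroblast line from skin, in which short-hairpin RNAs had been introduced. Cells of the shZNF469 group (genotype label ZNF469 knockdown, 3 libraries) carried short hairpins directed at the zinc-finger gene ZNF469. Cells of the shControl group (genotype label WT, 3 libraries) carried a control hairpin. The study asked how ZNF469 bears on production of extracellular matrix. Its design text calls the 3 libraries of a group technical replicates, so p-values measure only the spread between these libraries. How many hairpins were used, and whether the knockdown lines were clones, is not given in the labels.

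Fibrillar collagens are secreted as procollagens, trimmed by proteinases outside the cell and mostly assembled into striated fibrils. In skin, type I collagen forms the bulk of the fibril, type III copolymerises with it, and type V chains sit at the core, where they help to start a fibril and limit its diameter. Type XI plays the corresponding part in cartilage fibrils and its chains can join type V chains in mixed molecules, and type XXVII is best known from cartilage.

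Total counts were 41318439 to 48298264 in the shZNF469 libraries and 35417366 to 46911355 in the shControl libraries. ZNF469 had 1000, 906 and 750 counts in shZNF469 libraries and 1416, 2179 and 1494 counts in shControl libraries. After scaling it stood at 19.4 ± 1.76 CPM in shZNF469 cells and 42.0 ± 3.69 CPM in shControl cells (CPM is the count scaled to library size; SD, n = 3 each; log2 fold change -1.12, edgeR adjusted p = 0.000873). Of 12 fibroblast markers 11 were above 0 in every library, and DPT was above 0 in shControl replicate 3 alone. The 12 had a summed TPM (abundance corrected for transcript length and depth) of 25029 to 26346 in shZNF469 and 31400 to 33564 in shControl libraries. Without COL1A1 and COL1A2 the other 10 summed to 18357 to 18731 in shZNF469 and 15245 to 16164 in shControl, so that the lower sum lay in the type I chains. Of the markers of other cell types many were not listed. Others were above 0 in every library, among them CD68 and 6 smooth muscle and pericyte markers. Of 9 keratinocyte markers 2 were listed (KRT10 and EPCAM; summed TPM 18.5 to 19.7 in shZNF469, 24.9 to 28.8 in shControl). KRT5, KRT14 and TP63 were not listed, so they have no value here. Of 7 melanocyte markers 2 were listed (PMEL and MITF; 51.3 to 62.6 in shZNF469, 38.0 to 42.4 in shControl), and MLANA, TYR and DCT were not. PMEL was at 27.8 to 32.2 TPM in shZNF469 and 15.1 to 15.6 TPM in shControl, and MITF at 23.5 to 32.4 TPM in shZNF469 and 22.8 to 26.9 TPM in shControl. Endothelial markers (3 of 7) summed to 0.374 to 2.03 in shZNF469 and 0.936 to 2.20 in shControl, without PECAM1 and CDH5. Immune markers (3 of 7, almost all CD68) summed to 204 to 245.5 in shZNF469 and 173 to 195 in shControl, without PTPRC, CD3E and LYZ. Smooth muscle and pericyte markers (6 of 7, without MYH11) summed to 152 to 168 in shZNF469 and 162 to 167 in shControl. Chondrocyte markers, of the cell type in which types XI and XXVII are best known, summed to 11.1 to 14.7 in shZNF469 and 14.1 to 16.4 in shControl (4 of 9, without COL2A1, COL9A1 and HAPLN1). The part of these shifts in the results was not tested.

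COL3A1, COL5A1, COL5A2, COL5A3 and COL11A1 were lower in ZNF469 knockdown cells than in control cells, by 1.43-fold to 1.76-fold, and COL27A1 was not. Thus 5 of 6 members fell and 0 rose at an adjusted p under 0.05 (edgeR's quasi-likelihood test, Benjamini-Hochberg adjustment over 16353 genes). Over all genes tested, 5.34% were lower and 4.56% were higher by the same rule, 9.9% in all. The same 5 members had every shZNF469 library below every shControl library, which held for 15.7% of all genes tested (15.6% had every shZNF469 library above, 31.4% either). The members' median log2 fold change was -0.57, beside 0.0040 over all genes tested. As the members were chosen with earlier results of these data known, these comparisons with all genes are no test of enrichment. Counts of whole cultures cannot tell fewer cells expressing a gene from less RNA per cell.

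**Figure D1:**
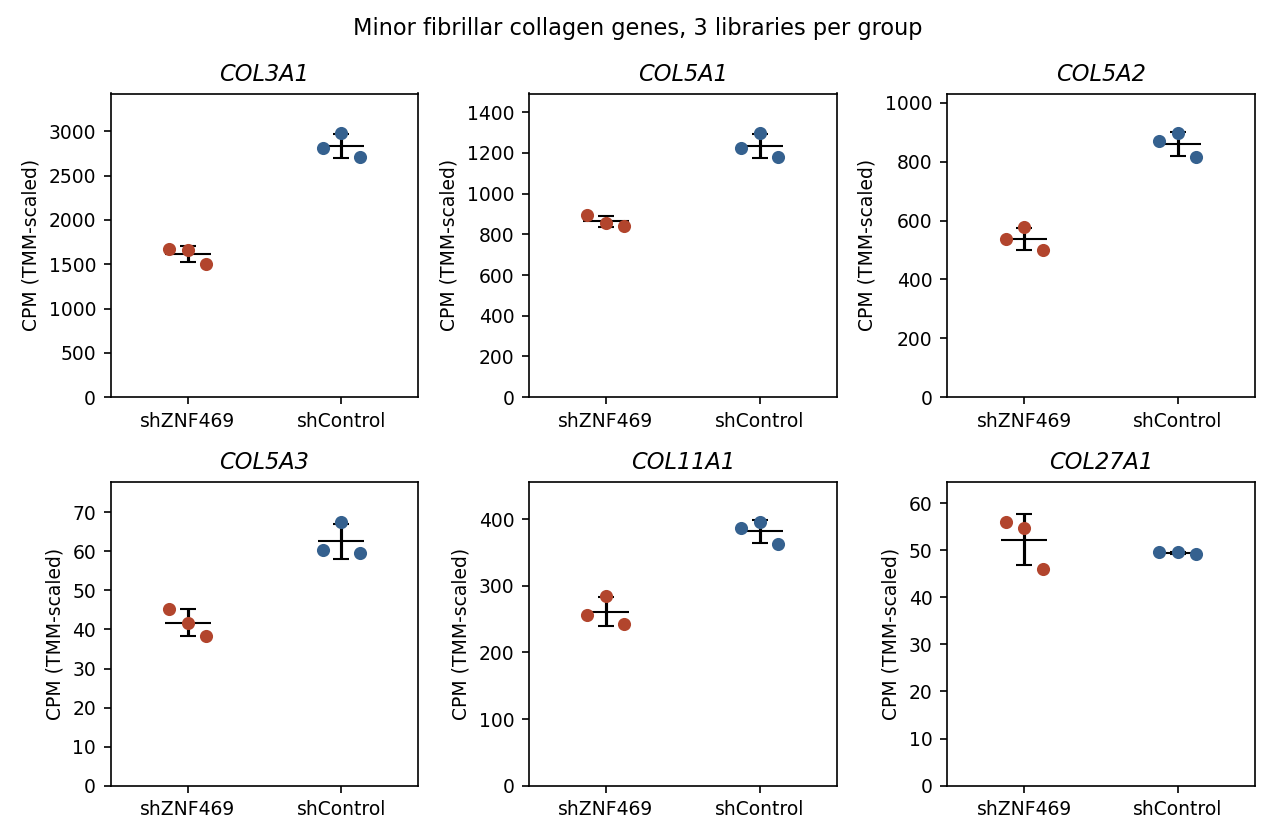
Library-scaled counts (CPM, TMM scaling) of the 6 minor fibrillar collagen genes in each library (points), with the group mean and SD (lines, n = 3), shZNF469 left and shControl right; each vertical axis starts at 0. The groups are apart for all genes but COL27A1, where the shZNF469 libraries lie at 56.1, 54.7 and 46.0 CPM around the control libraries near 49 CPM.

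COL3A1 encodes the chain of type III collagen, the collagen that gives distensible tissues such as skin and vessel wall their resilience and whose loss underlies the vascular form of Ehlers-Danlos syndrome. The gene (ENSG00000168542, protein coding) lies on chromosome 2 from 188974373 to 189012746 (RefSeq, GRCh38.p14). It had 78100, 82104 and 61255 counts in shZNF469 libraries, against 100322, 140416 and 101286 counts in shControl libraries. Scaled, these were 1672, 1656 and 1507 CPM in shZNF469 and 2815, 2979 and 2707 CPM in shControl. The highest knockdown library stayed well under the lowest control library, and library 3 was the lowest of its group on both sides. The level in shZNF469 was 56.9% of that in shControl (log2 fold change -0.81, SE 0.05, edgeR adjusted p = 0.000504). Only 3.68% of genes tested had a lower log2 fold change.

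Type V collagen is mostly a trimer of COL5A1 and COL5A2 chains, and mutations of either gene cause the classical form of Ehlers-Danlos syndrome, with fragile and overly stretchable skin. COL5A1 (ENSG00000130635, chromosome 9, 134641803 to 134844843) was at 894, 858 and 839 CPM in shZNF469 and at 1224, 1298 and 1178 CPM in shControl. The groups did not overlap, and the spread within each was under 5% of its mean (coefficient of variation 3.22% in shZNF469 and 4.89% in shControl). The level in shZNF469 was 70.0% of that in shControl (log2 fold change -0.51, SE 0.05, edgeR adjusted p = 0.0014). COL5A2 (ENSG00000204262, chromosome 2, 189031898 to 189441111) was at 536, 577 and 500 CPM in shZNF469 and at 869, 897 and 814 CPM in shControl. In shZNF469 62.5% of the control level was left (log2 fold change -0.68, SE 0.06, edgeR adjusted p = 0.0014), and here too no library crossed over.

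COL5A3 encodes a further type V chain of narrower tissue distribution, and it had the lowest CPM of the fallen genes. The gene (ENSG00000080573, chromosome 19, 9959561 to 10010504) had 2115, 2067 and 1557 counts in shZNF469 and 2152, 3188 and 2231 counts in shControl. On raw counts shZNF469 replicate 1 and shControl replicate 1 were nearly alike, at total counts of 46788609 for the knockdown library and 35417366 for the control library. Scaled, COL5A3 was at 45.3, 41.7 and 38.3 CPM in shZNF469 and at 60.4, 67.6 and 59.6 CPM in shControl, without overlap (log2 fold change -0.58, SE 0.08, edgeR adjusted p = 0.00586). Antisense genes overlap COL5A1, COL5A2 and COL5A3 in GENCODE release 29, among them COL5A1-AS1. These were not analysed here, and no source states whether counting used the strand, so their reads cannot be told apart from those of the collagen genes.

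COL11A1, the alpha-1 chain of type XI collagen, is a cartilage gene that fibroblasts also express in culture. The gene (ENSG00000060718, chromosome 1, 102876473 to 103108522) was at 256, 285 and 242 CPM in shZNF469 and at 386, 396 and 363 CPM in shControl. All control libraries lay above all knockdown libraries, and library 2 was the highest on both sides. The level in shZNF469 was 68.4% of that in shControl (log2 fold change -0.55, SE 0.07, edgeR adjusted p = 0.00453).

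COL27A1 encodes a fibrillar chain known from cartilage and other developing tissues, and it was the member that did not pass the test. The gene (ENSG00000196739, chromosome 9, 114154098 to 114312511) had 2619, 2710 and 1869 counts in shZNF469 and 1765, 2340 and 1843 counts in shControl. Scaled, it was at 56.1, 54.7 and 46.0 CPM in shZNF469 and at 49.5, 49.6 and 49.3 CPM in shControl. Of the knockdown libraries 2 lay above all controls and replicate 3 below them, so the groups overlapped. The coefficient of variation was 10.5% in shZNF469 and 0.404% in shControl. Its log2 fold change of 0.08 had a 95% interval of -0.11 to 0.26 (SE 0.08, edgeR adjusted p = 0.628). The intervals of the other members lay wholly below that one, the highest of them ending at -0.38 for COL11A1. Without shZNF469 replicate 3 the log2 fold change was 0.16 (adjusted p = 0.122), and after a correction for GC content and transcript length, chosen after seeing the data, it was -0.070 (adjusted p = 0.589), so no direction is given for COL27A1.

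**Figure D2:**
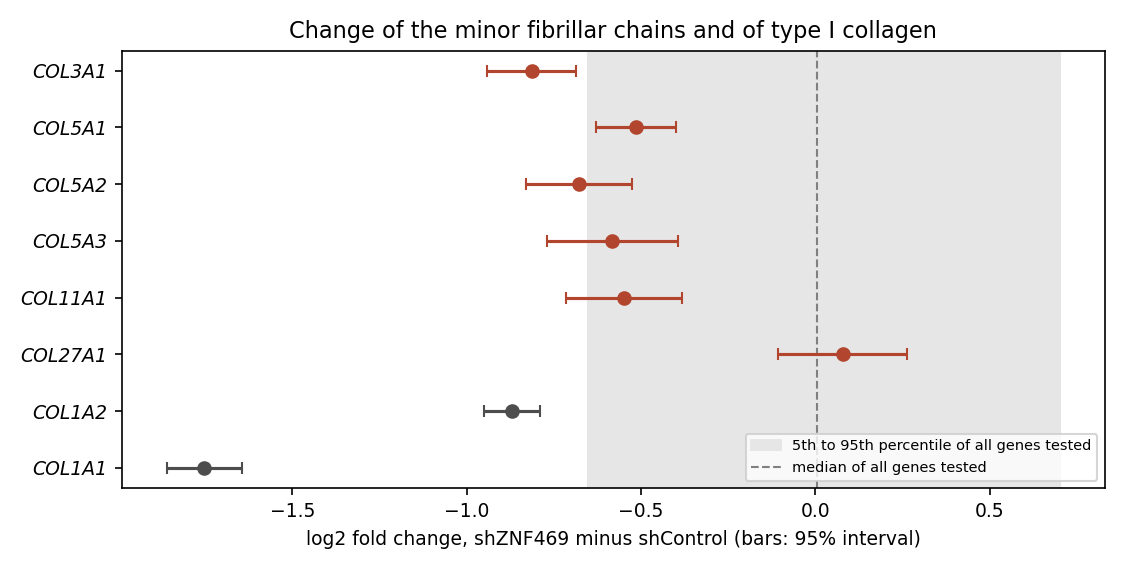
Log2 fold change, shZNF469 minus shControl, of the 6 minor fibrillar collagen genes and of the type I genes (points, with 95% intervals from the edgeR fit), beside the 5th to 95th percentile of all genes tested (grey band, -0.65 to 0.70). COL3A1 and COL5A2 lie left of the band, COL5A1, COL5A3 and COL11A1 within its left part, COL27A1 near 0, and COL1A1 farthest left at -1.75.

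RefSeq promoter windows on GRCh38.p14 were at hand for 4 members, and 250 bases before the start site are shown for them so that the fallen genes can be read beside COL27A1. Capitals mark the letters CCAAT (or ATTGG, its other strand), the CCAAT box known from many collagen promoters, and GGGCGG (or CCGCCC), the GC box. TATAAA, in either strand, was searched too and is in none of them.
COL5A1 (chr9:134641553-134641802, plus strand): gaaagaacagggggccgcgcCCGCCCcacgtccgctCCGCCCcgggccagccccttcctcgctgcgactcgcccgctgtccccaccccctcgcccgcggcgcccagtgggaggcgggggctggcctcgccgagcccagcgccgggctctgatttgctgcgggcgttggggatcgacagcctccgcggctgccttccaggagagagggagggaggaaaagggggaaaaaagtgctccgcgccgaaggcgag
COL5A3 (chr19:10010505-10010754, minus strand): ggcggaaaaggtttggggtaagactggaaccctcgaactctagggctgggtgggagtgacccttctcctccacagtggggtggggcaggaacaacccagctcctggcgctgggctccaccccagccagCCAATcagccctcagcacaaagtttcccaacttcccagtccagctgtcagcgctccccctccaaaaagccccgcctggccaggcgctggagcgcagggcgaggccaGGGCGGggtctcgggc
COL11A1 (chr1:103108523-103108772, minus strand): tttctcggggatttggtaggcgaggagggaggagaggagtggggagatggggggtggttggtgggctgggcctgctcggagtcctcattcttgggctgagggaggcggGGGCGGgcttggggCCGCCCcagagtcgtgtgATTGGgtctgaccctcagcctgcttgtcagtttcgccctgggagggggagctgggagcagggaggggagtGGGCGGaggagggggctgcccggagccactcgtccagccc
COL27A1 (chr9:114155287-114155536, plus strand): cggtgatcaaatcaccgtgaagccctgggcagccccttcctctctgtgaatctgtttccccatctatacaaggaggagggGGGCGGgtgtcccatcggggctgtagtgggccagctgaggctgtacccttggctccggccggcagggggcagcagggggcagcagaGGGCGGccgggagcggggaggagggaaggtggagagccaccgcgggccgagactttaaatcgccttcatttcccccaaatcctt
The COL27A1 window precedes a start that lies within the gene span given above. The GC box letters stand in all 4 windows, with 2 matches in COL5A1, 1 in COL5A3, 3 in COL11A1 and 2 in COL27A1, and in 42.6% of 35116 RefSeq windows of this length. The CCAAT letters stand once each in COL5A3 and COL11A1, between 122 and 106 bases before the start, and in 32.0% of all windows. TATAAA is in 10.7% of all windows. The 4 windows hold 64.4% to 74.0% G and C, against a median of 58.0% over all windows. The windows of COL5A1 and COL27A1 hold the same kinds of match. COL3A1 and COL5A2 have no window here, and which start sites these cells use is not known from these data. Whether any of these letters bear on the changes was not tested.

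On the length-scaled TPM of the authors the order of levels was COL3A1, COL5A1, COL5A2 and COL11A1, then COL5A3 and COL27A1. In shZNF469 libraries COL3A1 was at 594 to 739 TPM, COL5A1 at 218 to 253, COL5A2 at 159 to 207, COL11A1 at 72.5 to 96.0, COL27A1 at 13.5 to 18.7 and COL5A3 at 13.3 to 16.8 TPM. In shControl libraries COL3A1 was at 1091 to 1296 TPM, COL5A1 at 312 to 373, COL5A2 at 264 to 314, COL11A1 at 110 to 130, COL5A3 at 21.2 to 26 and COL27A1 at 15.7 to 16.4 TPM. Neighbours in this order were apart, with exceptions. COL5A3 and COL27A1 overlapped in shZNF469 but not in shControl, and COL5A1 and COL5A2 overlapped in shControl libraries, although COL5A1 was the higher in each library.

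Ratios of counts within a library do not depend on how libraries are scaled, and they were used to compare the chains with each other over 27 pairs. With 3 libraries against 3 the smallest p of the exact two-sided permutation test is 0.1, or 0.123 adjusted over the pairs, so no pair could pass. The ratio of COL5A1 to COL5A2 was 1.67, 1.49 and 1.68 in shZNF469 libraries and 1.41, 1.45 and 1.45 in shControl libraries. The ratio was higher in shZNF469 without overlap (log2 change 0.17, SE 0.06, exact permutation p = 0.1). With the GC content and transcript length correction the log2 fold changes of COL5A1 and COL5A2 lay closer, at -0.66 and -0.75, against -0.51 and -0.68 without it. The ratio of COL3A1 to COL5A1 was 1.87, 1.93 and 1.80 in shZNF469 and 2.30, 2.30 and 2.30 in shControl, where the 3 libraries were almost identical. It was lower in shZNF469 without overlap (log2 change -0.30, SE 0.03, exact permutation p = 0.1). On counts this was the widest change among the 10 pairs that leave out COL27A1. With the GC content and transcript length correction the log2 fold changes were -0.87 for COL3A1, -0.66 for COL5A1 and -0.62 for COL11A1. There COL3A1 lay farther from COL11A1 than from COL5A1. Within those 10 pairs 6 did not overlap between groups and 4 did, all of these 4 being pairs among COL5A1, COL5A2, COL5A3 and COL11A1. The same count was not made over pairs of all genes, so it cannot be told whether 6 of 10 is unusual. The ratio of COL5A3 to COL11A1 was the least changed on counts (log2 change -0.03, SE 0.09), and its sign turned without shZNF469 replicate 2 (0.03). With the correction COL5A3 was at -0.70, nearer to COL5A1 (-0.66) than to COL11A1 (-0.62).

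All 5 ratios of another member to COL27A1 were lower in shZNF469 without overlap, as were those of 15.7% of all genes tested. COL5A3 counts were 0.808, 0.763 and 0.833 of COL27A1 counts in shZNF469 libraries and 1.22, 1.36 and 1.21 of them in shControl libraries. COL5A3 thus had the fewer reads of the pair in each knockdown library and the more in each control library (log2 change -0.66, SE 0.07, exact permutation p = 0.1). The ratio of COL3A1 to COL27A1 was 29.8, 30.3 and 32.8 in shZNF469 and 56.8, 60.0 and 55.0 in shControl (log2 change -0.89, SE 0.06, exact permutation p = 0.1).

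**Figure D3:**
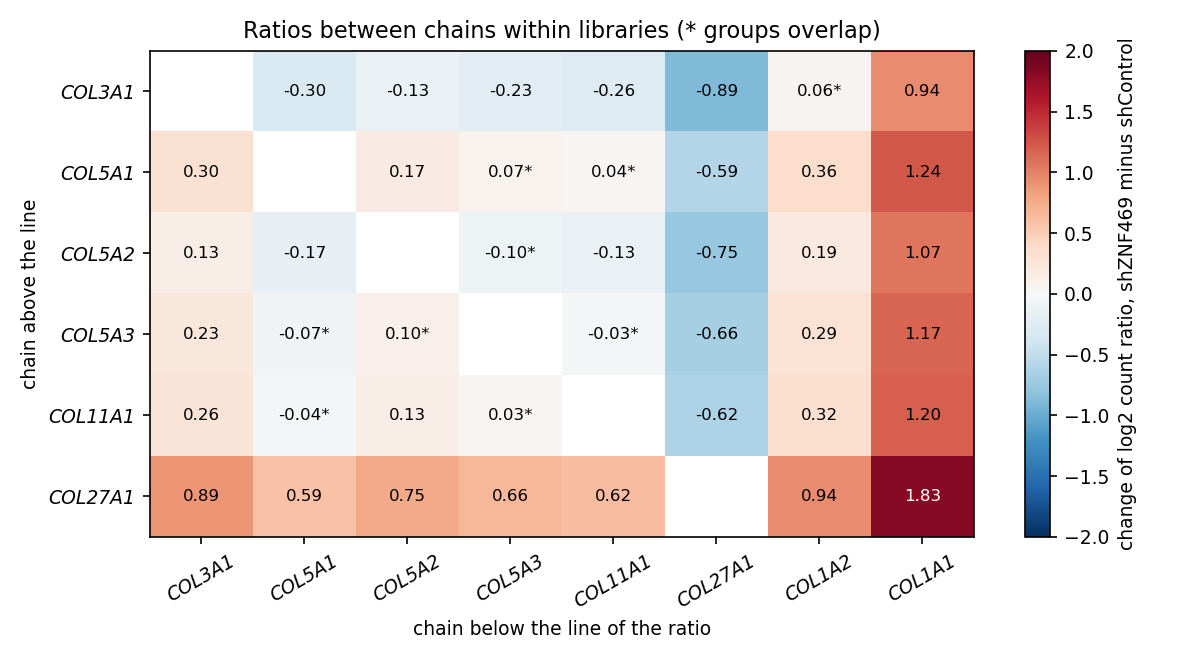
Change of the log2 count ratio between chains within libraries, shZNF469 minus shControl (number and colour; row gene over column gene), with a star where the groups' libraries overlap. The COL1A1 column runs from 0.94 to 1.83, the COL27A1 row is positive throughout, and the changes among COL5A1, COL5A2, COL5A3 and COL11A1 are within 0.17 of 0.

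Type I collagen, which forms the bulk of the skin fibril, fell too, and COL1A1 fell further than any of the 6 members. COL1A1 (chromosome 17, 50184101 to 50201631), the alpha-1 chain of type I, had a log2 fold change of -1.75 (SE 0.05, edgeR adjusted p = 1.63e-05), and COL1A2 (chromosome 7, 94394895 to 94431227), its partner chain, one of -0.87 (SE 0.03, adjusted p = 7.09e-05). All 6 members had a higher ratio to COL1A1 in each shZNF469 library than in any shControl library, from COL3A1 (log2 change 0.94, SE 0.06) to COL27A1 (log2 change 1.83, SE 0.09). The same held for 92.8% of all genes tested, so it says little of the members. COL5A1, for example, had 0.137, 0.145 and 0.138 counts per COL1A1 count in shZNF469 libraries and 0.0607, 0.0595 and 0.0577 in shControl libraries. Relative to COL1A2, 5 members were higher without overlap, as were 84.6% of all genes tested, and COL3A1 was not. COL3A1 counts were 0.151, 0.158 and 0.146 of COL1A2 counts in shZNF469 and 0.147, 0.149 and 0.142 of them in shControl (log2 change 0.06, SE 0.04, exact permutation p = 0.3). Each of these comparisons has 0.1 as the smallest exact permutation p.

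Summed over the 6 members, TPM was 1249, 1330 and 1070 in shZNF469 libraries and 2059, 2155 and 1814 in shControl libraries, so that 60.5% of the control level was left. All 10 fibrillar collagen genes listed summed to 8495 ± 652 TPM in shZNF469 and 19254 ± 1333 TPM in shControl (SD, n = 3 each), which left 44.1%. The members' share of that pool was 14.1%, 14.99% and 13.8% in shZNF469 libraries and 10.6%, 10.5% and 10.2% in shControl libraries, without overlap (exact permutation p = 0.1, adjusted 0.107 over 15 shares). Each member's own share was higher in shZNF469 too. Relative to the same pool 88.3% of all genes tested were higher without overlap, so a higher share by itself sets no member apart. COL3A1 made up 7.98 ± 0.329% in shZNF469 and 6.26 ± 0.126% in shControl, COL5A1 2.82 ± 0.0254% in shZNF469 and 1.79 ± 0.0381% in shControl, and COL27A1 0.196 ± 0.0197% in shZNF469 and 0.0841 ± 0.00648% in shControl (SD, n = 3 each). Within the 6 members alone COL3A1 held 55.8 ± 0.420% in shZNF469 and 60.1 ± 0.0921% in shControl, while the share of COL5A2 overlapped between groups (14.96 ± 0.545% in shZNF469 and 14.66 ± 0.180% in shControl; exact permutation p = 0.7). A share can be higher while the gene's own level is lower, as it was for 5 members here.

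**Figure D4:**
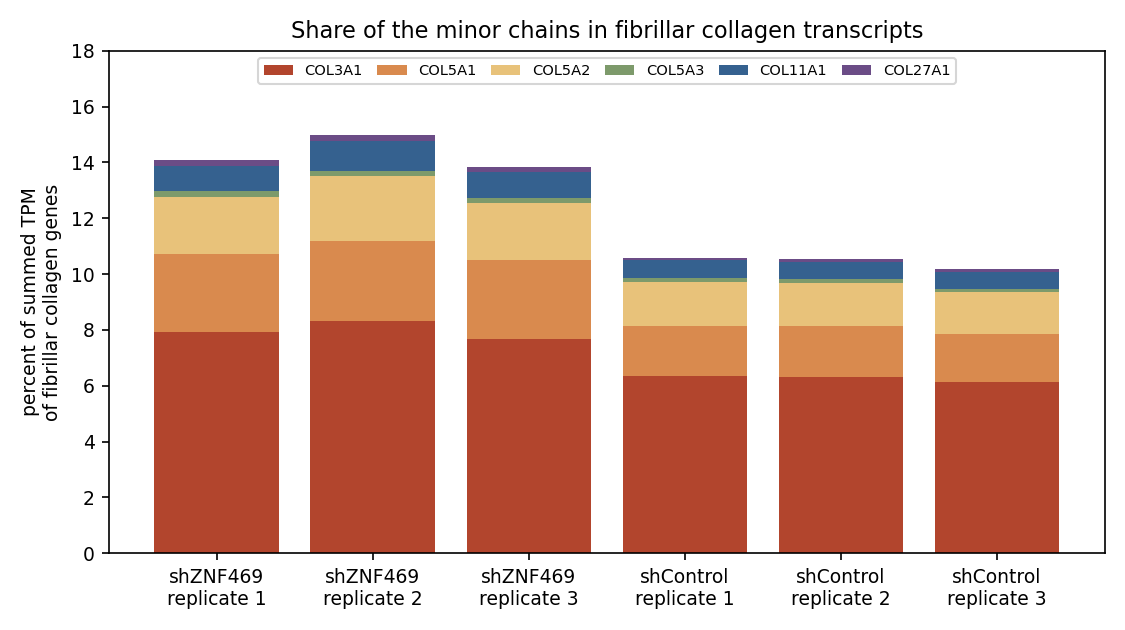
Share of each minor fibrillar collagen gene in the summed TPM of all listed fibrillar collagen genes, stacked per library (bars start at 0 and the rest up to 100% is type I collagen apart from traces). The stacks reach 13.8% to 14.99% in shZNF469 libraries and 10.2% to 10.6% in shControl libraries.

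The other fibrillar genes listed beside type I were near 0 and were not tested. COL11A2, which encodes the partner chain of COL11A1 in cartilage, had 45 counts in shControl replicate 2 and COL24A1 had 51 counts in shControl replicate 1, and both are listed at 0 in the other libraries. No fold change is given for them.

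COL3A1 and COL5A2 are neighbours on chromosome 2, with 19151 bases between them, and both fell. The nearest tested protein-coding genes on the outer sides did not pass. GULP1 was at 32.2 CPM in shZNF469 and 34.2 CPM in shControl (log2 fold change -0.09, adjusted p = 0.623). WDR75, 362 bases from the RefSeq span of COL5A2, was at 32.3 CPM in shZNF469 and 33.4 CPM in shControl (log2 fold change -0.05, adjusted p = 0.736). That span is 409214 bases long, and which COL5A2 start site these cells use is not known from these data. Beside COL27A1, AKNA was at 19.1 CPM in shZNF469 and 25.3 CPM in shControl (log2 fold change -0.40, adjusted p = 0.0211). Its call was lost without any 1 library except shControl replicate 3, with adjusted p up to 0.0978. On its other side ZNF618 was at 58.9 CPM in shZNF469 and 51.5 CPM in shControl (log2 fold change 0.19, adjusted p = 0.0641; 0.00349 in DESeq2, where it was higher). Over the 10 neighbouring genes that are not members, 1 was lower and 0 were higher, beside 5.34% and 4.56% of all genes tested. So few genes say little either way. Some lie far off, such as S1PR1 at 1634159 bases from COL11A1 and GULP1 at 378446 bases from COL3A1. OLFM1, beside COL5A1, was at only 0.720 CPM in shZNF469 and 1.20 CPM in shControl. These neighbours were looked up after the members' values were seen.

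The genes whose profile over the 6 libraries was most like a member's were found by the root mean square difference of mean-centred log2 CPM. The search ran among 9387 genes with a mean of 10 CPM or more, with the 6 members left out. For COL3A1 the nearest was COL1A2 (difference 0.047), followed by CCN2 (0.053), a matricellular growth factor gene, and PRR11 (0.059). For COL5A2 they were SLIT2 (0.032), COL4A1 (0.040) and EIF3J (0.046), and for COL5A3 COL15A1 (0.028), COL4A1 (0.056) and RDH10 (0.066). COL4A1, a basement membrane collagen gene, thus stood near both. Of the members left out of the search, COL5A1 was nearer to COL5A3 (0.061) than RDH10 was. For COL5A1 they were PVR (0.029), EZR (0.031) and LRRC59 (0.031), for COL11A1 CKAP2 (0.022), WDHD1 (0.032) and ANGPT1 (0.036), and for COL27A1 TTC39B (0.025), USP8 (0.028) and ZZEF1 (0.031). COL1A1 was far from every member on this scale, at 0.47 for COL3A1 and 0.92 for COL27A1. With 6 libraries these likenesses are descriptions.

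Genes that act with fibrillar collagens were read from 7 lists with 76 genes in all, of which 65 were tested. In these lists 13 genes were lower and 9 higher (20.0% and 13.8%), with a median log2 fold change of 0.03, beside the 5.34% and 4.56% of all genes. The 13 include COL1A1 and COL1A2, described above. As the lists were chosen with earlier results of these data known, these shares are no test of enrichment. The lists thus held genes of both directions, and the count of higher genes varied most with 1 library left out. It was 2, 10 and 3 without shZNF469 replicates 1, 2 and 3, and 1, 3 and 2 without shControl replicates 1, 2 and 3. The count of lower genes was 9, 14 and 11 without the same shZNF469 libraries, and 9, 10 and 11 without the same shControl libraries. On log2(TPM + 1), tested with limma, 10 genes called here did not pass, namely FURIN, FN1, ASPN, COMP, PLOD2, CRTAP, LOXL4, ITGA2, DDR1 and NFYA (adjusted p 0.0512 to 0.492).

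Of 19 genes for chain modification, folding and export, 5 were lower, 1 was higher and 13 did not pass, with a median log2 fold change of -0.02. Without shZNF469 replicate 1 or shControl replicate 1 the lower genes came to 3, and in DESeq2 there were 6 lower and 4 higher. P4HA1, a prolyl 4-hydroxylase subunit needed for a stable triple helix, was at 60.3 ± 0.980 CPM in shZNF469 and 127 ± 0.438 CPM in shControl (log2 fold change -1.07, SE 0.05, adjusted p = 0.000107). P4HA2, its relative, was 1.36-fold lower (adjusted p = 0.00395), and SERPINH1, the collagen chaperone HSP47, was 1.40-fold lower (adjusted p = 0.00381). P3H1, a prolyl 3-hydroxylase, was 1.36-fold lower (adjusted p = 0.00974), but did not pass without shZNF469 replicate 1, shControl replicate 1 or shControl replicate 2 (adjusted p up to 0.0531). Outside the rule for named genes, the lysyl hydroxylase gene PLOD2 fell (log2 fold change -0.49, adjusted p = 0.0119), a call lost without shZNF469 replicate 1 (adjusted p = 0.0633) or shControl replicate 1 (adjusted p = 0.0666). CRTAP, the partner of P3H1, rose instead (log2 fold change 0.24, adjusted p = 0.0189), a call that stood with shZNF469 replicate 2 left out and with no other library left out (adjusted p up to 0.0797). It was lost too with the GC content and transcript length correction (adjusted p = 0.136).

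Procollagen proteinases and their enhancers mostly did not pass, with 1 of 7 higher and 0 lower. FURIN, a proprotein convertase known to trim the COL5A1 propeptide, was at 166 ± 6.98 CPM in shZNF469 and 131 ± 1.95 CPM in shControl (log2 fold change 0.35, SE 0.05, adjusted p = 0.00855; 0.0512 without shControl replicate 1). ADAMTS2, which removes the N-propeptides of types I and III, was at 320 ± 9.77 CPM in shZNF469 and 367 ± 14.8 CPM in shControl and missed the threshold (log2 fold change -0.20, adjusted p = 0.0503). It passed as lower in DESeq2 (adjusted p = 0.000524) and with the GC content and transcript length correction (adjusted p = 0.00468), which makes 1 lower gene in each. ADAMTS3, a relative, was at 1.67 CPM in shZNF469 and 2.39 CPM in shControl (adjusted p = 0.261), and PCOLCE, which enhances removal of the C-propeptide, was at 876 ± 77.8 CPM in shZNF469 and 830 ± 38.7 CPM in shControl (adjusted p = 0.593).

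Of 15 genes for fibril surface and assembly proteins, 3 were higher and 3 lower. This split varied with the setting. In DESeq2 6 were higher and 3 lower, and on log2(TPM + 1) 2 were higher and 1 lower. With the GC content and transcript length correction 2 were higher and 4 lower. THBS2, a matricellular protein whose loss in mice gives misshapen skin fibrils, was at 1794 ± 34.9 CPM in shZNF469 and 1353 ± 8.33 CPM in shControl (log2 fold change 0.41, SE 0.03, adjusted p = 0.000852). POSTN, which encodes periostin, was at 107 ± 6.26 CPM in shZNF469 and 155 ± 6.10 CPM in shControl (log2 fold change -0.54, SE 0.06, adjusted p = 0.00321). Both held without any 1 library. The rise of PRELP, a leucine-rich repeat proteoglycan gene (1.23-fold, adjusted p = 0.0263), was lost without each library but shZNF469 replicate 2 (adjusted p up to 0.107). That of FN1, which encodes fibronectin (1.09-fold, adjusted p = 0.0261), was lost without shZNF469 replicates 1 or 3 or shControl replicates 1 or 3 (adjusted p up to 0.0890). With the GC content and transcript length correction neither passed, with PRELP at a log2 fold change of 0.24 (adjusted p = 0.0761) and FN1 at 0.065 (adjusted p = 0.585, against a log2 fold change of 0.13 without it). The other lower genes, ASPN (log2 fold change -0.62, adjusted p = 0.0355) and COMP (log2 fold change -0.31, adjusted p = 0.0388), are named beyond the rule. Without 1 library ASPN passed only where that was shZNF469 replicate 2 and COMP not at all, with adjusted p up to 0.121 and 0.128.

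Cross-linking enzymes were split, with 1 of 5 lower and 2 higher. LOXL2 was at 585 ± 32.7 CPM in shZNF469 and 904 ± 7.85 CPM in shControl (log2 fold change -0.63, SE 0.05, adjusted p = 0.000818). LOXL1 (1.24-fold higher, adjusted p = 0.0477) and LOXL4 (1.19-fold higher, adjusted p = 0.0314) rose with all libraries, and both calls were lost without each library but shZNF469 replicate 2 (adjusted p up to 0.156 and 0.119). LOXL3 was at 80.1 CPM in shZNF469 and 78.6 CPM in shControl (adjusted p = 0.889).

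Of 8 collagen receptor genes, 2 were lower and 1 higher. ITGA11, the integrin subunit by which fibroblasts bind fibrillar collagen, was at 21.6 ± 1.25 CPM in shZNF469 and 40.6 ± 1.45 CPM in shControl (log2 fold change -0.91, SE 0.06, adjusted p = 0.00056). ITGA2, another collagen-binding subunit, was at 7.11 ± 0.931 CPM in shZNF469 and 15.01 ± 0.996 CPM in shControl (log2 fold change -1.08, SE 0.12, adjusted p = 0.00239). DDR1, a receptor tyrosine kinase for collagen, was 1.25-fold higher (adjusted p = 0.0309), a call lost without each library but shZNF469 replicate 2 (adjusted p up to 0.109). ADGRG1, a receptor for type III collagen in the developing brain, was at 7.88 CPM in shZNF469 and 5.84 CPM in shControl and did not pass (adjusted p = 0.0622; 0.00623 in DESeq2, where it was higher).

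Among 9 tested genes of transcription factors known to act on fibrillar collagen genes, 1 was higher and 0 lower. NFYA, a subunit of the CCAAT-binding factor, was at 30.9 ± 2.34 CPM in shZNF469 and 25.1 ± 0.846 CPM in shControl (log2 fold change 0.30, SE 0.07, adjusted p = 0.0415). That call was lost without each library but shZNF469 replicate 3 (adjusted p up to 0.139). The other subunit genes did not pass, with NFYB at 44.1 CPM in shZNF469 and 51.2 CPM in shControl (adjusted p = 0.0971) and NFYC at 22.4 CPM in shZNF469 and 24.7 CPM in shControl (adjusted p = 0.461). CREB3L1, which activates collagen genes in secretory cells, was at 260 CPM in shZNF469 and 290 CPM in shControl (adjusted p = 0.142). In DESeq2 2 of these genes passed as lower, NFYB (adjusted p = 0.0172) and CREB3L1 (adjusted p = 0.0256), and with the GC content and transcript length correction CREB3L1 did (adjusted p = 0.0483).

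**Figure D5:**
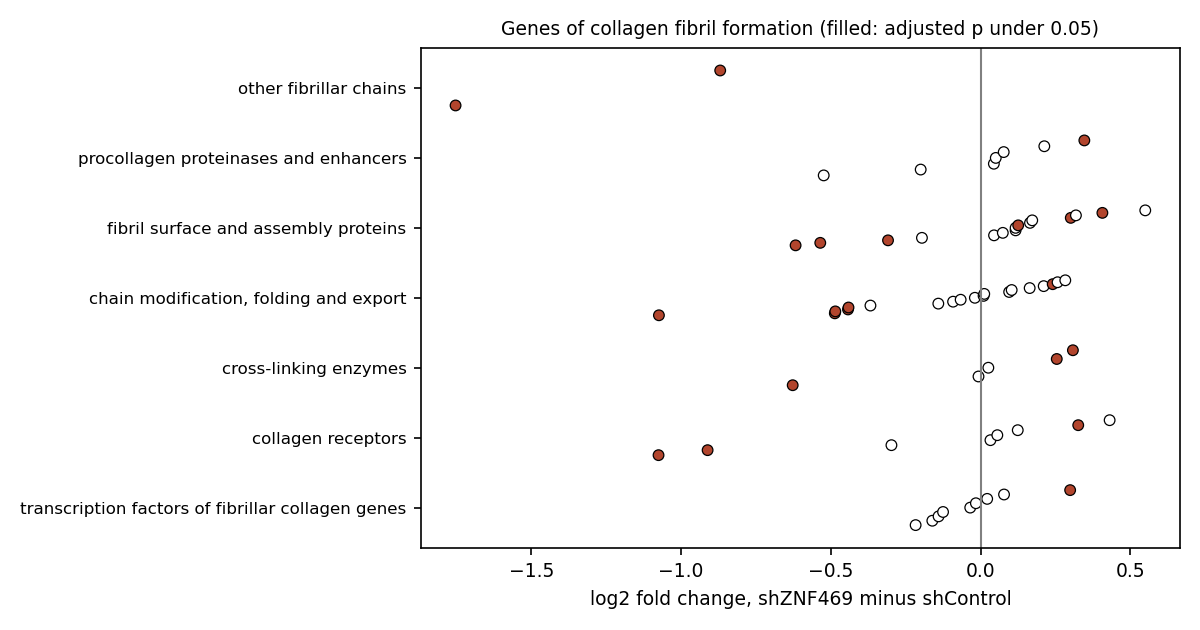
Log2 fold change, shZNF469 minus shControl, of each tested gene in 7 lists of collagen fibril formation (points, spread vertically by rank within a list; filled where the edgeR adjusted p is under 0.05). The type I chains, P4HA1, ITGA2 and ITGA11 lie farthest left, and filled points on the right stay under 0.5.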

How the data were processed

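RNA from 6 libraries (3 shZNF469, 3 shControl) was sequenced; per the labels' protocols, libraries were built with an NEBNext Ultra kit. The submitters' processing notes name HISAT2, StringTie and GRCh38.p14. Versions, annotation, filters and strand setting: not given in the sources used here. The authors deposited whole-number counts per gene and their TPM values, per the file headers. Where 58 symbols were repeated, the one of highest mean count was taken.

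Counts were filtered with filterByExpr (minimum count 10), scaled by TMM and tested with edgeR 4.0.16 in R 4.3.3 (quasi-likelihood test of group, with no other term), adjusted over 16353 genes. DESeq2 1.42.0 and limma 3.58.1 on log2(TPM + 1) served as alternatives. Ratios and shares were compared by exact two-sided permutation tests. Named genes were the members, ZNF469, COL1A1, COL1A2, up to 4 genes of lowest p per list and 3 nearest profiles per member; the other exceptions are stated. Members and lists were chosen with earlier results of these data known. Libraries of a group differed beyond sampling noise (chi-square 8.01 to 36.4 per degree of freedom), so none was counted as a repeat. That spread does not show whether they came from separate cultures. Lowest TPM values above 0 were 0.333 to 0.456, so a listed 0 does not show absence of reads.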

Additional observations from a re-analysis of the deposited data

How the results depend on the processing

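The falls of COL3A1, COL5A1, COL5A2, COL5A3 and COL11A1 kept their direction and their call in all 14 alternatives (5 lower members in each), with adjusted p up to 0.0389. COL27A1 passed in none and turned to -0.0704 after the GC content and transcript length correction, which was chosen after seeing the data. With that correction USP8 was at -0.0692, ZZEF1 at -0.0435 and LOXL3 at -0.0149. Among the genes given an adjusted p above, PRELP, FN1 and CRTAP lost their calls with it, and ADAMTS2 and CREB3L1 passed as lower. Among the same genes DESeq2 gained ADAMTS2, NFYB and CREB3L1 as lower and ADGRG1 and ZNF618 as higher. Other genes of the 7 fibril lists were gained too. Lower genes of these lists, 13 in edgeR, came to 18 in DESeq2 and 18 with the correction. With 1 library left out LOXL3 ranged from -0.0337 to 0.1005, and the COL5A3 to COL11A1 log2 ratio from -0.105 to 0.0312. WDR75 was at 0.021 on log2(TPM + 1) and 0.0217 on log2(TPM + 0.1). The causes were not tested. Counts over all genes depended more on the setting. Higher and lower genes came to 745 and 874 in edgeR, 1638 and 1642 in DESeq2, 233 and 526 on log2(TPM + 1), 191 and 462 on log2(TPM + 0.1), and 204 to 768 and 333 to 852 with 1 library left out. Higher genes of the 7 fibril lists, 9 in edgeR, came to 16 in DESeq2, 3 on log2(TPM + 1), 2 on log2(TPM + 0.1) and 1 to 10 with 1 library left out. Leaving out a library removes a replicate; the other causes were not tested.

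Same-numbered libraries of the groups did not deviate together (correlations -0.0226, 0.0759 and 0.0334 across genes), so the numbers were not taken as pairs. Correlations of differently numbered libraries ran from -0.103 to 0.0606. With the replicate block 592 genes were higher and 736 lower, and COL27A1 was at 0.0741 (adjusted p = 0.579). LOXL1, LOXL4, DDR1, NFYA and ASPN did not pass with it.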
